A study of Drosophila melanogaster with 2 samples.

Results

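The 5 GATA factor genes of Drosophila melanogaster (grn, pnr, srp, GATAd and GATAe) were examined for peaks of the Polycomb group protein Pleiohomeotic (Pho) in whole embryos. They were taken by name out of 13945 protein-coding genes of the 6 main chromosome arms. Each was given a window of the gene and 10 kb on either side, and every peak whose summit fell in a window was read out. The chromatin came from embryos of both sexes, 0 to 24 h old, of a transgenic line whose Pho carries an enhanced green fluorescent protein (eGFP) tag, and an antibody against GFP precipitated it. There was 1 group with 2 biological replicates, numbered 3 and 4 by the submitters, both from the same tagged line. Untagged embryos were not analysed here, so binding of Pho and precipitation of accessible chromatin cannot be told apart, and a whole embryo averages over all its tissues and stages. The files give no read counts, so the depth is unknown.

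GATA factors are zinc finger proteins that bind DNA at the sequence GATA and direct the fate of whole tissues. In the fly, srp (serpent) is needed for blood cells, the fat body and the endoderm, and GATAe acts after it in the midgut. The gene pnr (pannier) patterns the dorsal ectoderm, the heart and the bristles of the thorax, and grn (grain) shapes the posterior spiracles and guides motor axons. GATAd is the least studied of the family. Pho is a sequence-specific DNA-binding protein that helps to bring Polycomb complexes to developmental genes, and its site has the core GCCAT.

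Peaks are ranked by the signal value that the authors' caller gave them, rank 1 being the strongest of a list. The optimal list held the 4293 peaks kept by the authors' threshold on reproducibility, with signal values from 91.9 to 2583 and a median of 145. The relaxed list from the pooled reads of both replicates held 30000 entries, peaks and background together, of which the 4293 strongest are the optimal list. The lists of each replicate held 30000 entries too. Summits at most 500 bp from a transcript start were called promoter summits, and a replicate was said to share a summit when its own list had one within 100 bp. All coordinates are on dm6.

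Of the 4293 optimal peaks 6 had their summit in a window: 2 at grn, 1 at pnr, 3 at GATAd and 0 at srp and GATAe. Only those at grn and 1 of those at GATAd had a GATA gene as the nearest protein-coding gene by transcript start, since the others stood at the starts of neighbours. The ranks of all 6 ran from 1289 to 4211. A summit in the window was therefore present for 3 of the 5 genes, where 64.0% of all protein-coding genes had one. A summit no more than 1000 bp from a start was found for 1 of the 5 (grn), where 26.1% of all protein-coding genes had one. Both counts lie near these background shares. Long genes have wider windows. With the protein-coding genes split into 10 classes of about equal size by gene length, the window share was 75.2% in the class of GATAd, 74.5% in that of GATAe and 71.2% in that of grn, pnr and srp, and the share with a summit near a start was 38.1%, 37.6% and 35.6%. Windows with 5 kb either side held a summit for 2 of the 5 genes (51.0% of all) and those with 20 kb for 4 of the 5 (78.1%).

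The sequences below are the 101 bases around the summits that the results turn on, read 5′ to 3′ on the plus strand of the RefSeq dm6 genome. Capitals mark matches on either strand to GCCAT (the Pho core), to TATCGATA (the site of DREF, a factor of broadly active promoters), to GGTCACACT (the site of M1BP, another promoter factor), and GAGAG (the site of the GAGA factor, which is found at Polycomb response elements). They also mark GATA sites, searched as AGATAA and as another form, TGATAA. The first pair belongs to grn and comprises the optimal summits whose nearest protein-coding start is that of grn.
grn start, chr3R:8181560-8181660: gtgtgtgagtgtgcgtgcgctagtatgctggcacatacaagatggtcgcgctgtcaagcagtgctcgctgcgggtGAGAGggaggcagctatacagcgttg
grn distal peak, chr3R:8191015-8191115: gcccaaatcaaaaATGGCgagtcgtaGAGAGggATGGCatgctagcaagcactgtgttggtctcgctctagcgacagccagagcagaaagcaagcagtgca
The next is the summit inside GATAd, followed by the stronger of the summits that stand at SamDC behind it and by the one at CG5013 behind pnr.
GATAd intron, chr2L:10334913-10335013: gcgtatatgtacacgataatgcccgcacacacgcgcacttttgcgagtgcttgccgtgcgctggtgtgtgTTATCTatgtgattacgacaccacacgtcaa
SamDC start, chr2L:10339347-10339447: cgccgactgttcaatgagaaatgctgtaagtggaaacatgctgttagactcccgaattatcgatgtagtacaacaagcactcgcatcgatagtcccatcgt
CG5013 start, chr3R:16049544-16049644: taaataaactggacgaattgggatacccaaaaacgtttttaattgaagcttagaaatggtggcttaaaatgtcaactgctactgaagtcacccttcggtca
The last are the strongest entries at the starts of pnr and GATAe, which are in the pooled list and not in the optimal one.
pnr start, chr3R:16025929-16026029: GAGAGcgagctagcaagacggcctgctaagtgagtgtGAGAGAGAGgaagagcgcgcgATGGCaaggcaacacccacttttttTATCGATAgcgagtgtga
GATAe second start, chr3R:16012091-16012191: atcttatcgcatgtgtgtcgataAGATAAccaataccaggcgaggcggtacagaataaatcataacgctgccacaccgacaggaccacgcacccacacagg

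The gene grn (FBgn0001138, chr3R:8147368-8181444, minus strand) carried the strongest peak at the start of any GATA gene. The peak, chr3R:8181392-8181827, had its summit 166 bp upstream of the only annotated start of grn, with a signal value of 147 on pooled reads and rank 2100. Replicate 3 gave it a signal value of 79.5 and rank 2572, and replicate 4 gave 61.1 and rank 2012. Its summit was shared by both, at 27 bp in replicate 3 and at 5 bp in replicate 4. Among all protein-coding genes 15.0% had an entry of this rank or stronger within 1000 bp of a start. The ranks therefore place this start in the stronger part of the genome's starts, with 2085 genes at or above it, and it was among the strongest 4293 of the list of each replicate.

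A further peak of grn lay far upstream, at chr3R:8190847-8191282 in intergenic DNA. Its summit stood 9621 bp from the grn start, which was the nearest start of a protein-coding gene, and 6646 bp from the start of the long noncoding RNA lncRNA:CR43302. The signal value was 94.8 and the rank 4065, close to the end of the optimal list at 91.9. The replicates ranked it 4250 and 4631, with signal values of 57.5 in replicate 3 and 36.4 in replicate 4, so their ranks stood closer together (a ratio of 1.09) than for the median optimal peak that both share (1.43). Only 354 optimal summits, 8.25%, were intergenic. An entry outside the optimal list overlapped it (summit 8191264, rank 7266), and another lay 8211 bp upstream of grn (rank 10756). Both were shared by the replicates.

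The window of grn held no other protein-coding gene and 6 tRNA genes. The body of the gene held few pooled entries: all 3 entries of the pooled list inside grn lay within 4870 bp of its start, at ranks 10899, 17125 and 23670. From there no entry of the pooled list followed for 34.9 kb, until the summit at 8141706 beside the tRNA genes. It was picked as the longest gap in the window. Gaps between neighbouring entries had a median of 1.57 kb, and 1.35% were as long as this. That share counts gaps and not bases, and long gaps cover a larger share of the arms than of the gaps. The list of replicate 3 had summits within the gap at 8153025 (rank 21300) and 8171666 (rank 10545), and that of replicate 4 at 8150701 (rank 25793), 8174576 (rank 27259) and 8176456 (rank 22854), the last of them 118 bp from the pooled summit that bounds the gap, and no summit of one replicate lay within 100 bp of one of the other. With 9 pooled entries in 54.1 kb, grn had 1.66 entries per 10 kb, below the 2.24 per 10 kb of the arms as a whole. The lists of replicates 3 and 4 came closer to that value, with 2.03 and 1.85 per 10 kb in the window. They had 6 and 5 summits inside the gene.

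**Figure D1:**
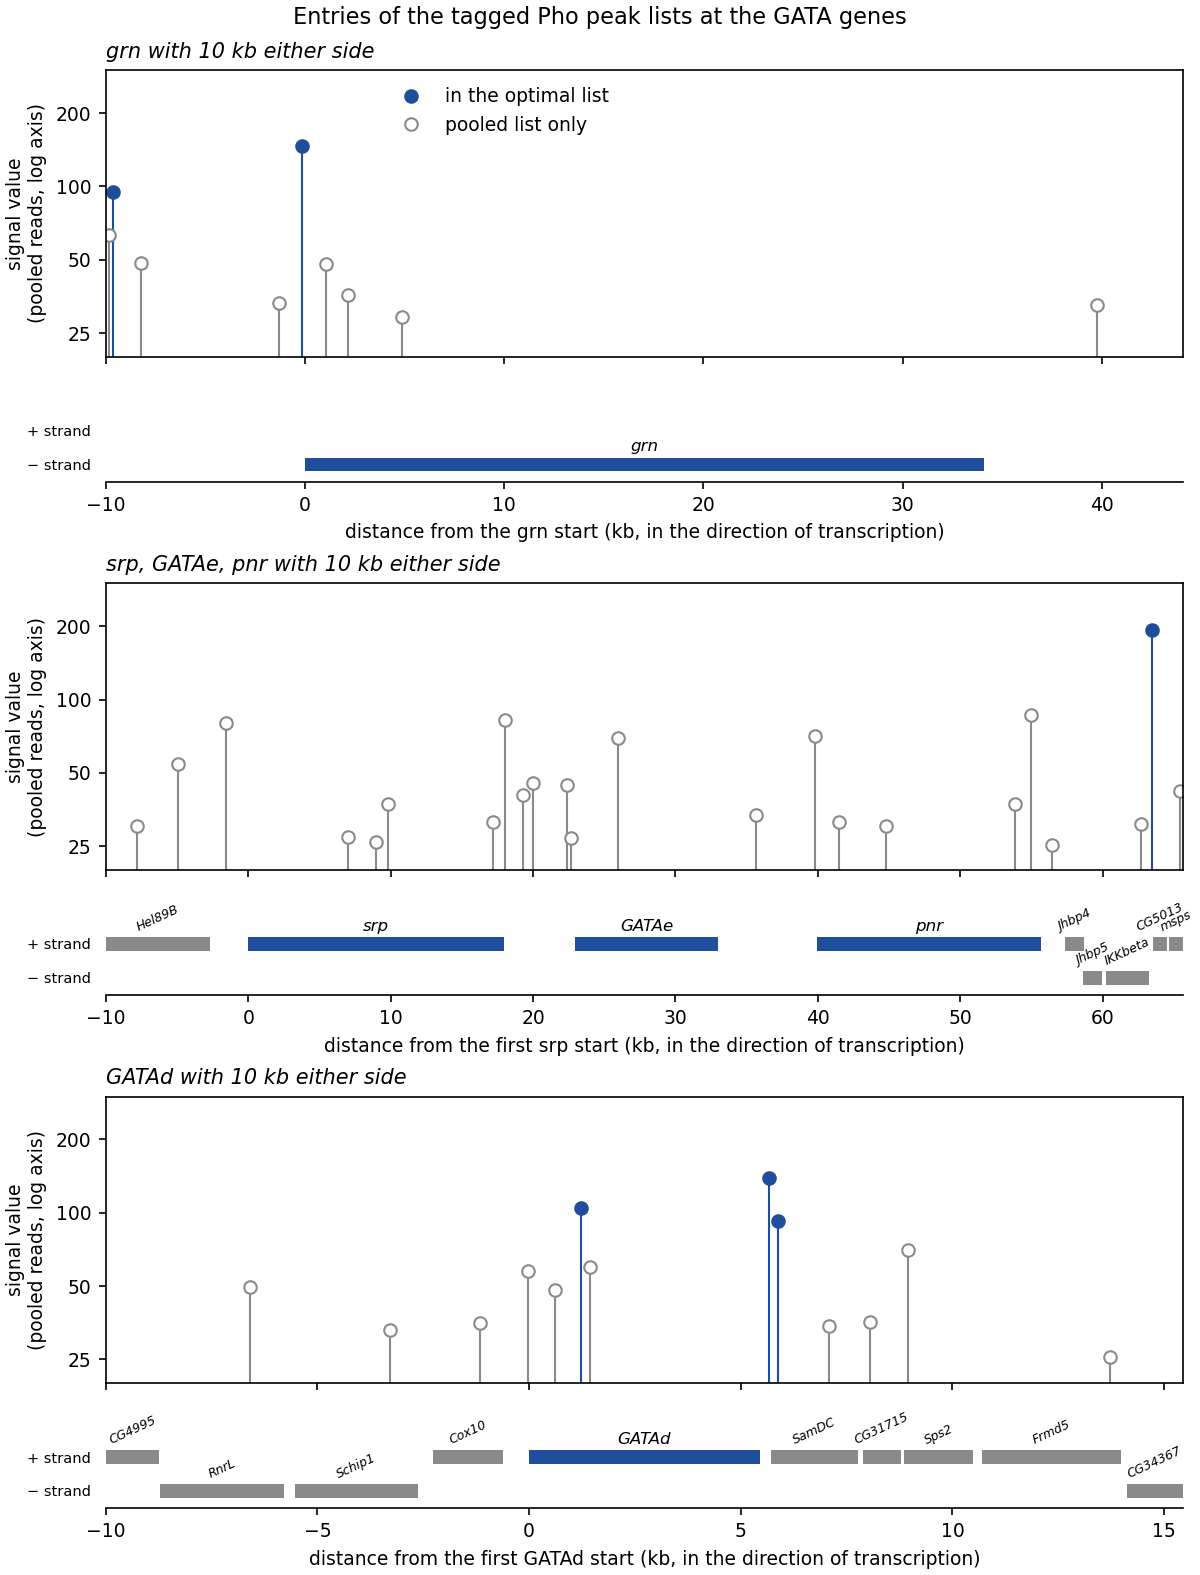
Signal values of all pooled entries in the windows (vertical axis, logarithmic) against the distance from the start of grn, srp or GATAd in kb. Filled points are optimal peaks and open points are entries of the pooled list alone, with protein-coding genes drawn as bars by strand and the GATA genes in blue. The peaks at 147 and 94.8 stand at and far upstream of the grn start, the region from srp to pnr holds open points alone, and the filled points of GATAd lie in its first intron and behind its end.

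GATAd (FBgn0032223, chr2L:10333734-10339185, plus strand) was the one GATA gene with an optimal summit inside it, as 11.7% of protein-coding genes had. The peak at chr2L:10334745-10335180 had its summit in the first intron of all 3 transcripts that contain it, 1049 bp from the nearer of the gene's 2 starts and so just outside the limit of 1000 bp. Its signal value was 105 and its rank 3517. Replicate 3 had a summit 17 bp away with a signal value of 74.3 (rank 2883). The nearest summit of replicate 4 was 123 bp away with a signal value of 37.6 (rank 4389), so this was the one optimal summit of the family that the replicates did not share. The pooled and replicate 3 lists both had a further summit in the same intron, at 10335172 (rank 7815) and 10335179 (rank 7103). The summit of replicate 4, at 10335086, lay between the positions of the pair, and the intervals of the peaks overlapped in all lists.

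At the GATAd starts themselves the pooled entries were outside the optimal list, and the replicates placed their entries differently. The pooled list had an entry 17 bp from a start (summit 10333717, signal value 57.9, rank 8235) and another 428 bp away (summit 10334342, 48.1, rank 10843). Replicate 3 shared the first of these (signal value 40.5, rank 7029) and replicate 4 the second (39.3, rank 4065). Among the strongest 4293 entries of replicate 4, 2 of the 5 genes thus had a summit near a start (grn and GATAd; 25.5% of all protein-coding genes), and among those of replicate 3 it was 1 of 5 (grn; 26.2% of all). The pooled summit 17 bp from the start had TGATAA on the minus strand 40 bp away, a GATA site that 6.56% of all pooled entries had.

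The other optimal peaks in the window of GATAd belonged to a neighbour. SamDC, which encodes S-adenosylmethionine decarboxylase of polyamine synthesis, starts just behind the end of GATAd on the same strand. The stronger peak (chr2L:10339179-10339614, signal value 139, rank 2290) had its summit 60 bp from the SamDC start and 212 bp past the end of GATAd. The other (chr2L:10339402-10339837, signal value 93.0, rank 4211) overlapped it, with its summit in the first intron of SamDC. The replicates ranked both apart: 1722 in replicate 3 and 4247 in replicate 4 for the stronger, 3143 and 12834 for the weaker. A rank ratio of 4.08 or more, as for the weaker, was found for 2.47% of the shared optimal peaks. The window of GATAd was crowded, with 9 other protein-coding genes in 25.5 kb and 5.11 pooled entries per 10 kb. Having 3 or more optimal summits in the window was true of 20.7% of protein-coding genes.

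The other 3 genes stand next to each other on chromosome 3R, in the order srp, GATAe, pnr, all on the plus strand, with 5019 bp between srp and GATAe and 6945 bp between GATAe and pnr. No optimal summit lay in the 55.6 kb from the start of srp to the end of pnr. The nearest to the left was a peak 11756 bp before srp (rank 1263, signal value 195), whose nearest coding start was that of Hel89B at 1098 bp. The nearest to the right was a peak 7798 bp past pnr (rank 1289). The stretch between these summits measured 75.2 kb. Distances between neighbouring optimal summits had a median of 10.2 kb and 9.14% were as long as this, but such long distances make up 46.2% of the bases of the arms. How many genes lie in them was not counted.

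The peak right of pnr (chr3R:16049376-16049811) was the strongest in any of the windows. Its signal value was 193 on pooled reads, 105 in replicate 3 (rank 1608) and 82.2 in replicate 4 (rank 1197). Its summit lay 76 bp from the start of CG5013 and 15008 bp from the nearest pnr start. It stood between the starts of CG5013 and of IKKbeta, a kinase of the innate immune response, which are transcribed in opposite directions. It is counted for pnr by position alone.

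Weaker entries marked the starts of pnr and GATAe in both replicates. At pnr (FBgn0003117, chr3R:16026079-16041796) the entry had its summit 100 bp upstream of the first of 3 starts, with a signal value of 70.9 and rank 6180. Replicate 3 had its summit 1 bp away (signal value 33.5, rank 9195) and replicate 4 had it 4 bp away (35.6, rank 4804). At GATAe (FBgn0038391, chr3R:16009105-16019133) the entry stood 133 bp from the second of 2 starts, with a signal value of 69.5 and rank 6358, and the replicates ranked it 8682 and 5827. Near the first GATAe start the pooled list had weaker entries 560 bp (rank 12203) and 323 bp (rank 26419) upstream. The entry of rank 12203 stood nearer to the start of the long noncoding RNA lncRNA:CR42839, at 472 bp. An entry as strong within 1000 bp of a start was found for 32.9% of protein-coding genes in the case of pnr and for 33.4% in that of GATAe. The order of both starts turned round between the replicates: GATAe ranked ahead of pnr in replicate 3 and behind it in replicate 4, so the difference between them was within the spread of the replicates.

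Within 1000 bp of a start, srp (FBgn0003507, chr3R:15986152-16004085) had a strongest entry that was the weakest of the family. Around its 4 starts the pooled list had a summit 690 bp from a start in the 5' untranslated region (signal value 27.2, rank 26231) and one 968 bp away in a coding exon (25.9, rank 28094), near the lowest value of the list, 24.7. Replicate 3 shared only the first and replicate 4 only the second. An entry of rank 26231 or stronger near a start was found for 61.7% of protein-coding genes. By the strongest entry within 1000 bp of a start, the order of the genes was therefore grn, pnr, GATAe, GATAd, srp on pooled reads. In replicate 3 it was grn (2572), GATAd (7029), GATAe (8682), pnr (9195), srp (17731), and in replicate 4 grn (2012), GATAd (4065), pnr (4804), GATAe (5827), srp (22716). In both replicates and on pooled reads grn came first and srp last, while the 3 genes between them changed places. The last place of srp rests on the limit of 1000 bp. An entry 1525 bp before its first start ranked 5244 on pooled reads and 3618 in replicate 3, ahead of the entries of pnr and GATAe in those lists. In replicate 4 it ranked 20084, behind them. The limit also leaves out the GATAd peak at 1049 bp (rank 3517 on pooled reads).

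**Figure D2:**
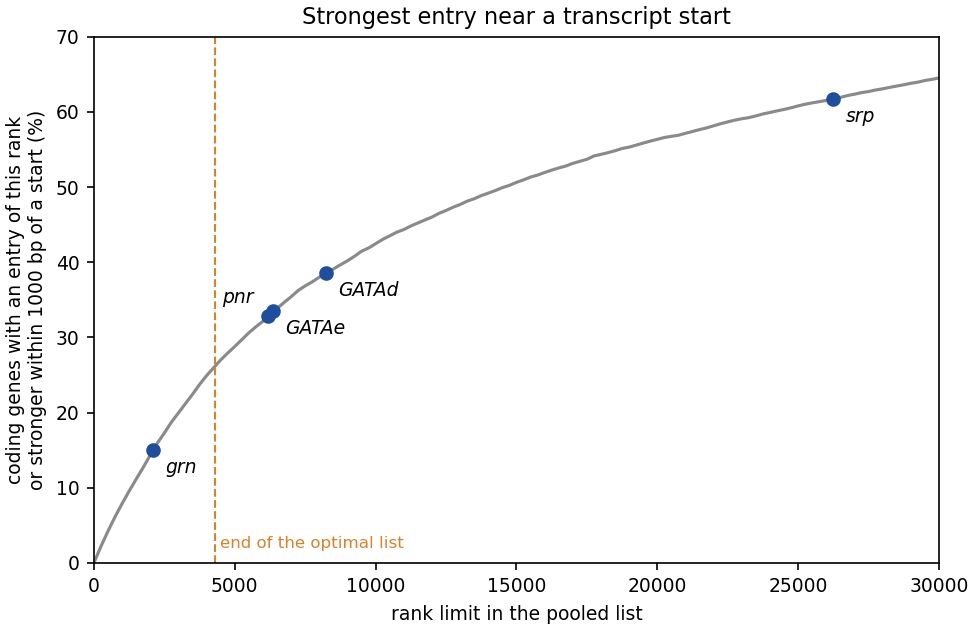
Share of the 13945 protein-coding genes that have a pooled entry of a given rank or stronger within 1000 bp of a transcript start (grey line), against that rank. Points mark the 5 GATA genes, from grn at rank 2100 (15.0% of genes) to srp at rank 26231 (61.7%), and the dashed line marks the end of the optimal list at 4293, which grn alone precedes.

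Of the entries that both replicates share, one upstream of srp was ranked most differently by them. It lay 1525 bp before the first srp start (chr3R:15984409-15984844, intergenic) and had a signal value of 80.0 and rank 5244 on pooled reads. In replicate 3 it was strong, with a signal value of 64.0 and rank 3618, and in replicate 4 it was weak, with 16.4 and rank 20084. Both replicates placed the summit within 7 bp of the pooled one. A rank ratio as large as 5.55 was seen for 1.17% of the 8597 shared entries outside the optimal list, whose median ratio was 1.56.

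The strongest entries within the srp to pnr stretch lay at the ends of genes. An entry in the 3' untranslated region of pnr (chr3R:16040909-16041344) had a signal value of 86.5 and rank 4692, just outside the optimal list, and the replicates ranked it 5255 and 4946. Another lay 122 bp past the end of srp (chr3R:16003989-16004424, signal value 82.5, rank 5026), ranked 4168 in replicate 3 and 9899 in replicate 4. In replicate 3 alone the entries before and behind srp were among the strongest 4293, and all 5 genes then had such a summit in their window (64.2% of all protein-coding genes did), GATAe through the entry that its window shares with srp. In replicate 4 alone grn, pnr and GATAd had one, as on pooled reads (63.6% of all). Both entries at gene ends overlapped annotated transposable element insertions, of a BS element (102 bp) at pnr and of a G5 element (99 bp) at srp, whose near edges lay 107 bp and 108 bp from the summits. Such an overlap was present for 1.33% of all pooled entries and 0.676% of the optimal peaks, and its part in these signals was not tested.

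**Figure D3:**
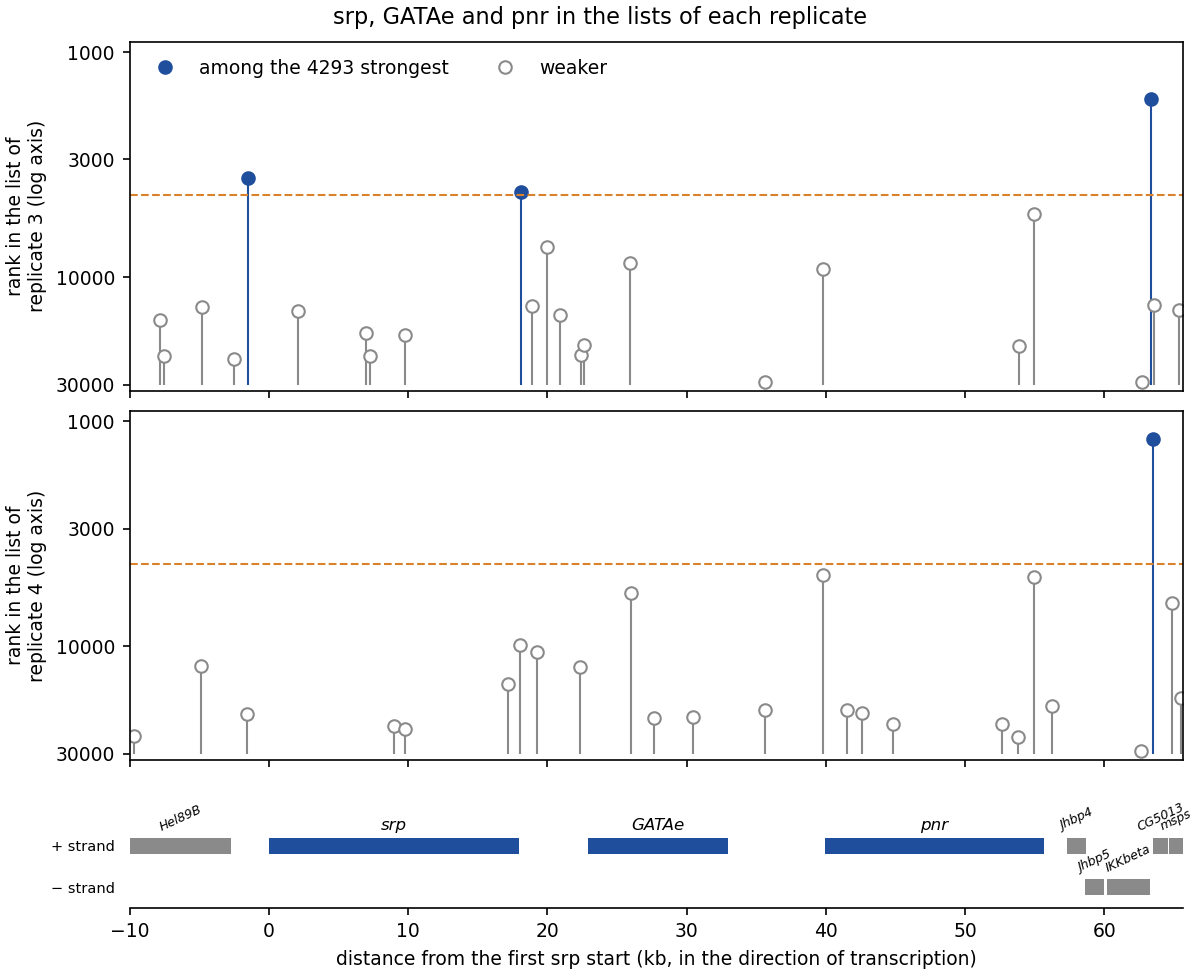
Ranks of all entries from srp to pnr with 10 kb on either side, in the list of replicate 3 (top) and of replicate 4 (middle), on a logarithmic axis with strong entries upward, against the distance from the first srp start in kb. Filled points are among the 4293 strongest of their list (dashed line). Those 1525 bp before srp (rank 3618) and behind its end (rank 4168) are filled in replicate 3 and open in replicate 4, while the one at CG5013 is filled in both.

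Over all windows, which cover 155 kb without double counting, the pooled list had 45 entries, replicate 3 had 48 and replicate 4 had 46. All 5 genes had a pooled entry in the window (93.6% of protein-coding genes did) and all 5 had one within 1000 bp of a start (64.5%). This was 2.90 pooled entries per 10 kb, against 2.24 over the arms, and 0.387 optimal summits per 10 kb, against 0.321. Of the 6 optimal summits 5 were shared by both replicates, where 94.4% of all optimal peaks were. Of the 39 weaker pooled entries 15 were shared by both, where 33.4% of all weaker entries were, and 2 by neither. By annotation 4 of the 6 optimal summits lay within 500 bp of a start, 1 in an intron and 1 in intergenic DNA, and 62.0%, 27.3% and 8.25% of all optimal summits did. Only 1 of the 4 promoter summits was at the start of a GATA gene. Among the pooled entries 13 of 45 were promoter summits (28.9%, against 34.1% of all entries) and 10 lay in coding exons (22.2%, against 12.7%). Most of these coding exons belonged to neighbouring genes, and the rest to srp and pnr.

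**Figure D4:**
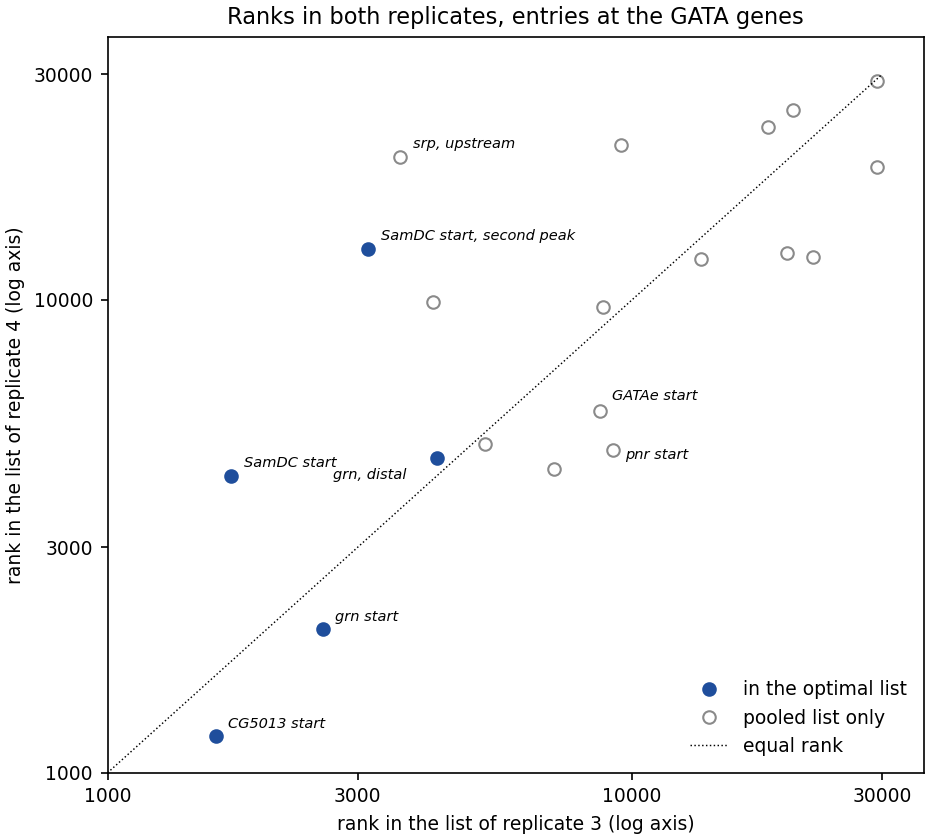
Rank in the list of replicate 3 (horizontal) against rank in that of replicate 4 (vertical), both logarithmic, for the 20 pooled entries at the GATA genes that both replicates share within 100 bp. Filled points are optimal peaks, open points are weaker entries and the dotted line marks equal ranks. The grn and CG5013 peaks lie near the line, and the entry upstream of srp (3618 and 20084) lies farthest from it.

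The motifs differed between the sites printed above. The distal grn peak was the only one of the 6 optimal summits with GCCAT within 50 bp. It held the core at 2 places on the minus strand, 13 bp and 33 bp from the summit, and GAGAG at 20 bp. GCCAT was present within 50 bp of 15.8% of all optimal summits, 2 or more times at 1.84%, and together with GAGAG at 2.03%. These combinations were counted after the sequence had been read. The grn start had GAGAG 25 bp from the summit but no GCCAT, and GAGAG was present at 3 of the 6 summits and at 11.2% of all. The 101 bases around the 6 summits were 37.6% to 58.4% G or C, against a median of 36.6% for all optimal summits. The part of base composition in these shares was not tested. The GATAd intron had AGATAA on the minus strand at 20 bp, a GATA site that 6.85% of all optimal summits had. TATCGATA, GGTCACACT and TGATAA were at none of the 6, and at 3.35%, 1.44% and 8.08% of all.

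The weaker entry at the pnr start held GCCAT on the minus strand 8 bp from the summit, TATCGATA 33 bp away, and GAGAG at 4 positions, 3 of them overlapping. Of all 30000 pooled entries 18.9% had the Pho core, 13.1% the GAGA factor site, 1.35% the DREF site and 0.657% the M1BP site. The Pho core with the GAGA factor site was present at 2.32%, and these with the DREF site at 5 entries (0.0167%). This combination too was looked for after the sequence had been read. The GATAe entry had AGATAA 22 bp from its summit, as 5.61% of pooled entries had. A match describes these letters alone and is not a bound site.

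Genes known to work with the GATA factors were read out in the same way, as 5 lists with 39 genes in all. A summit of the optimal list at most 1000 bp from a start was present for 3 of the 39 (7.69%, against 26.1% of all protein-coding genes) and one in the window for 23 (59.0%, against 64.0%). Of the partners of GATA proteins 2 of 5 had a summit at a start: CtBP, a corepressor (rank 1288, 876 bp from a start), and ush, the cofactor that binds the zinc finger of Pannier (rank 2508, 570 bp). The window of ush held 15 optimal summits, the strongest of them rank 1 of the genome at its neighbour cbt. The partners Bx and Chi had none at a start. Of the gut genes 1 of 5 had one, the forkhead factor fkh (rank 333, signal value 384, 239 bp from a start), which replicate 3 ranked 414 and replicate 4 ranked 257, while byn and cad had none. None of the 10 dorsal ectoderm and heart genes (ac and Doc1 among them), of the 12 blood cell and fat body genes (Col4a1 and crq) or of the 7 posterior spiracle genes (Abd-B and ct) had a summit so near a start. In their windows 5, 9 and 3 genes had one, which can stand at a neighbour. Among the blood cell and fat body genes, crq alone had its strongest such summit nearest to itself. Most of those of the dorsal ectoderm and heart genes were also nearest to another gene. Those of the posterior spiracle genes were nearest to the genes themselves. The strongest summit in the window of the posterior spiracle genes ranked 2534 at the Hox gene Abd-B and 3182 at ct, and that of crq, a scavenger receptor of blood cells, ranked 2992.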

How the data were processed

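Pho tagged with GFP was mapped by ChIP-seq in 2 biological replicates of 1 group. Per the labels, chromatin was sonicated to 200 to 800 bp. The deposited dm6 lists were used. Per the texts deposited with them, the authors called peaks on each replicate and on pooled reads against 1 shared control, and the optimal list holds those that passed their irreproducible discovery rate (IDR) cutoff. The aligner, the caller, their versions and that cutoff: not given in the sources used here. The signal value of each peak, as deposited by the authors, was used to rank peaks inside each list and never compared between lists, whose scales differ. The dm3 lists were not used, because coordinates were not converted between builds.

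Gene models were those of Ensembl release 115 (23581 distinct transcript starts), without 5809 transposable element insertions, and the sequence was RefSeq release 6. All entries end within the chromosome lengths of that sequence. Summits are the start plus the offset in the list, written 1-based. A summit was classed by the first that applied of promoter, then the exon classes (5' untranslated, coding, 3' untranslated, noncoding), then intron, and otherwise as intergenic. Motif windows were 50 bp either side of the summit. Counting was done with Python 3.11.15, numpy 2.4.6 and pandas 2.3.3 and checked on simulated summits. No test was run: there is 1 group, and the 5 genes are not replicates. Whether the replicates came from separate collections beyond their labels as biological replicates is not given.

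The genes and lists were chosen with earlier results of these data known. Named were the 5 genes, the gene nearest to each optimal summit in a window and, of each related list, up to 4 genes with and 2 without a summit at a start. Other genes were named for position, and the entries near srp and at gene ends were chosen after their values were seen.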

Additional observations from a re-analysis of the deposited data

How the results depend on the processing

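The gene grn had a summit within 1000 bp of its start in the optimal list, in its peaks above the median signal value and in the strongest entries of each replicate. The signal value of this peak, 147, was only just above that median, 145. The 3 genes with an optimal summit in the window became 1 (GATAd) for the gene body alone. Taking the 4293 strongest entries of 1 replicate gave 3 to 5 genes and 4 to 8 summits, the 5 genes without replicate 4 through the entries around srp, and leaving out a replicate gave 1 to 2 genes with a summit within 1000 bp of a start (GATAd added without replicate 3) and 4 summits at starts either way. With each summit given to the nearest coding start alone, 2 genes had one. The 6 summits became 10 with 20 kb either side, 1 in gene bodies and 2 among optimal peaks above the median signal value. Those that both replicates share (5) became 3 with 5 kb, 9 with 20 kb, 0 in gene bodies, 2 above the median and 3 with summits matched within 50 bp. They became 6 with summits matched within 200 bp and 6 when overlap of the peak intervals was enough. The 4 at transcript starts became 7 with 20 kb, 0 in gene bodies and 2 above the median. The 45 pooled entries became 15 in gene bodies. A smaller window, a shorter list or a tighter match can only lower these counts by construction, and the cause of the differences between the replicates was not tested. Counting transposable element starts, an alternative added after seeing the data, left 4. No paired analysis was possible because there is 1 group. Depth is unknown, so a gene without an entry is one without an entry among those listed.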
